A study of Mus musculus with 10 samples.

Results

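Expression of 38 genes of the transforming growth factor beta (TGF-beta) and bone morphogenetic protein (BMP) pathways was compared between Eln+/+ and Eln-/- smooth muscle cells, taken from the aorta of mouse embryos. The genes were chosen by symbol and fall into 9 ligands, 10 receptors, 8 SMADs, 6 antagonists and 5 targets. All 38 had a row among the 28165 genes of the deposited table, and 35 were abundant enough to be among the 15718 genes tested. Cells came from the aortas of embryos at embryonic day 15.5, obtained by intercrossing Eln(+/-) mice that carried Acta2-GFP, a green fluorescent reporter of smooth muscle actin. There were 5 Eln+/+ and 5 Eln-/- libraries, none from treated cells, and each is named here by its genotype and replicate number. In both genotypes the digested aorta was sorted for cells that were GFP+, CD31- (CD31, the product of Pecam1, marks endothelium) and DAPI- (DAPI stains dead cells). The cells were thus selected by activity of the Acta2 reporter. The labels give neither the nature of the Eln allele nor the number of embryos behind a library. The p-values therefore reflect the spread among these 10 libraries alone, part of which may be technical.

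TGF-beta and BMP ligands are secreted dimers that bring together type II receptor kinases (Tgfbr2, Acvr2a, Acvr2b and Bmpr2) and type I receptor kinases (Tgfbr1, Acvrl1, Acvr1 and Bmpr1a). TGF-beta and activin receptors mainly phosphorylate Smad2 and Smad3, and BMP receptors Smad1, Smad5 and Smad9. Both sets of SMADs then bind Smad4 and regulate genes in the nucleus, among them the genes of the inhibitory SMADs Smad6 and Smad7, which damp the signal. In the aorta the pathway promotes contractile and matrix gene expression in smooth muscle, TGF-beta is stored in the matrix as a latent complex on fibrillin microfibrils, and inherited defects of Tgfb2, Tgfbr1, Tgfbr2 or Smad3 cause aortic aneurysm in people.

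No member passed the test between the genotypes. With edgeR's quasi-likelihood test and Benjamini-Hochberg adjustment over all genes tested, 0 of the 35 members passed 0.05 and every adjusted p was 1.00, and the share called was 0% of all genes tested. At an unadjusted p under 0.05 there were again 0 members, against 0.515% of all genes tested. No member had CPM values (counts scaled by library size and composition) that did not overlap between the genotypes, against 0.305% of all genes. DESeq2 called 0 members and 0.0392% of the 15320 genes to which it gave an adjusted p. Limma-voom called 0 members and 0.0127% of all genes, and limma-voom with quality weights per library called 0 members and 0.0445%. The smallest unadjusted p among the members was 0.0796, for Id4, and the next was 0.0826, for Smad7. Spread limited what could be detected, since the standard errors (SE) of the members' log2 fold changes ran from 0.373 (Bambi) to 1.85 (Bmp5). A p above the threshold does not show that the levels were equal.

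As a check of the labels, Eln ran from 159 to 1214 CPM in the Eln+/+ libraries and from 0 to 0.493 CPM in the Eln-/- libraries, although its adjusted p with edgeR was 0.152. Total counts ran from 26951733 to 63866416 per library. The 3 libraries Eln+/+ 1, Eln-/- 4 and Eln-/- 5 had a count for 15067 to 15898 genes, against 18141 to 22934 in the other 7, and they came from both genotypes. In each of these 3 libraries, 10 of the 35 members were lower than in each of the other 7 (Tgfb2, Tgfb3, Bmp4, Bmp7, Tgfbr1, Tgfbr2, Tgfbr3, Eng, Smad3 and Skil), against 21.5% of all genes tested. Such genes were thus found over the whole table. The 3 libraries were picked for their few detected genes, which in part sets such a share. Only Id3 was higher in each of them than in each of the other 7, against 16.0% of all genes. The composition factors used for CPM were 0.562 (Eln+/+ 1), 0.486 (Eln-/- 4) and 0.847 (Eln-/- 5), against 1.13 to 1.37 in the other 7. A low factor raises the CPM of its library, and no alternative without composition scaling was run. Between genotypes, values are given with and without these 3 libraries for the class medians and for some of the members. In bulk RNA from sorted cells, fewer cells of a type and less RNA of a gene per cell cannot be told apart.

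Upstream sequence is shown for 3 members only. They are Tgfbr1, the receptor with the highest level, Acvr2a, the receptor with the lowest p, and Id4, the member with the lowest p of all. Each is the 250 bases before a RefSeq transcript start (for Tgfbr1 the first of 2) on the GRCm38.p6 assembly, read 5′ to 3′ on the gene's plus strand. They lie at chr4:47352972-47353221 (Tgfbr1), chr2:48813859-48814108 (Acvr2a) and chr13:48260866-48261115 (Id4). Capitals mark matches to GGCGCC, a GC-rich element to which SMADs can bind and which reads the same on both strands, or to CAGAC, the SMAD box, which is GTCTG on the opposite strand.
Tgfbr1: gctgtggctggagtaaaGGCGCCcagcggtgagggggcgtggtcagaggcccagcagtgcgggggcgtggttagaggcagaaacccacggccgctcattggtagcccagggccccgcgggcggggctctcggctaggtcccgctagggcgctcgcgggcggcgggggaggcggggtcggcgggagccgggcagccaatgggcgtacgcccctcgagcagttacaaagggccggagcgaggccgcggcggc
Acvr2a: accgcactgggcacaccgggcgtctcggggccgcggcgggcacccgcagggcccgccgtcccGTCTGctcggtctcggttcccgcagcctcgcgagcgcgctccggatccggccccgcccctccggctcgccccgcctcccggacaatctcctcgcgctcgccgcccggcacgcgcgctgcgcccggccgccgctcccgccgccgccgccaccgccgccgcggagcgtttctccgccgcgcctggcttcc
Id4: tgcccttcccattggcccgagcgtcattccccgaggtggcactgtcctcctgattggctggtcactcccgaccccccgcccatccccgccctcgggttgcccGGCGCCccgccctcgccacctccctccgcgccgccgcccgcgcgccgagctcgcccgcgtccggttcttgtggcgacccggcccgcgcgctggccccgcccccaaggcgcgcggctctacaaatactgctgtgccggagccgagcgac
The windows shown for Tgfbr1 and Id4 each hold 1 GGCGCC, starting 233 and 148 bases before the start, and the window of Acvr2a holds 1 GTCTG, starting 188 bases before the start. Their GC contents were 74.8% for Tgfbr1, 75.6% for Id4 and 82.0% for Acvr2a. Tgfbr1 has a second RefSeq start, whose window (chr4:47385966-47386215) holds CAGAC starting 203 bases before that start and no GGCGCC. RefSeq promoter entries were found for 25 of the 38 members, in 28 windows. GGCGCC was in 10 of these 28 windows (35.7%), against 9.59% of all 32851 windows of the same length, which were not matched for GC content. CAGAC or GTCTG was in 12 of the 28 (42.9%), against 42.2% of all windows. TGACGTCA, the cAMP response element, was in none of the 28 and in 1.55% of all windows. Such a match is a description of the letters and not a binding site.

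**Figure D1:**
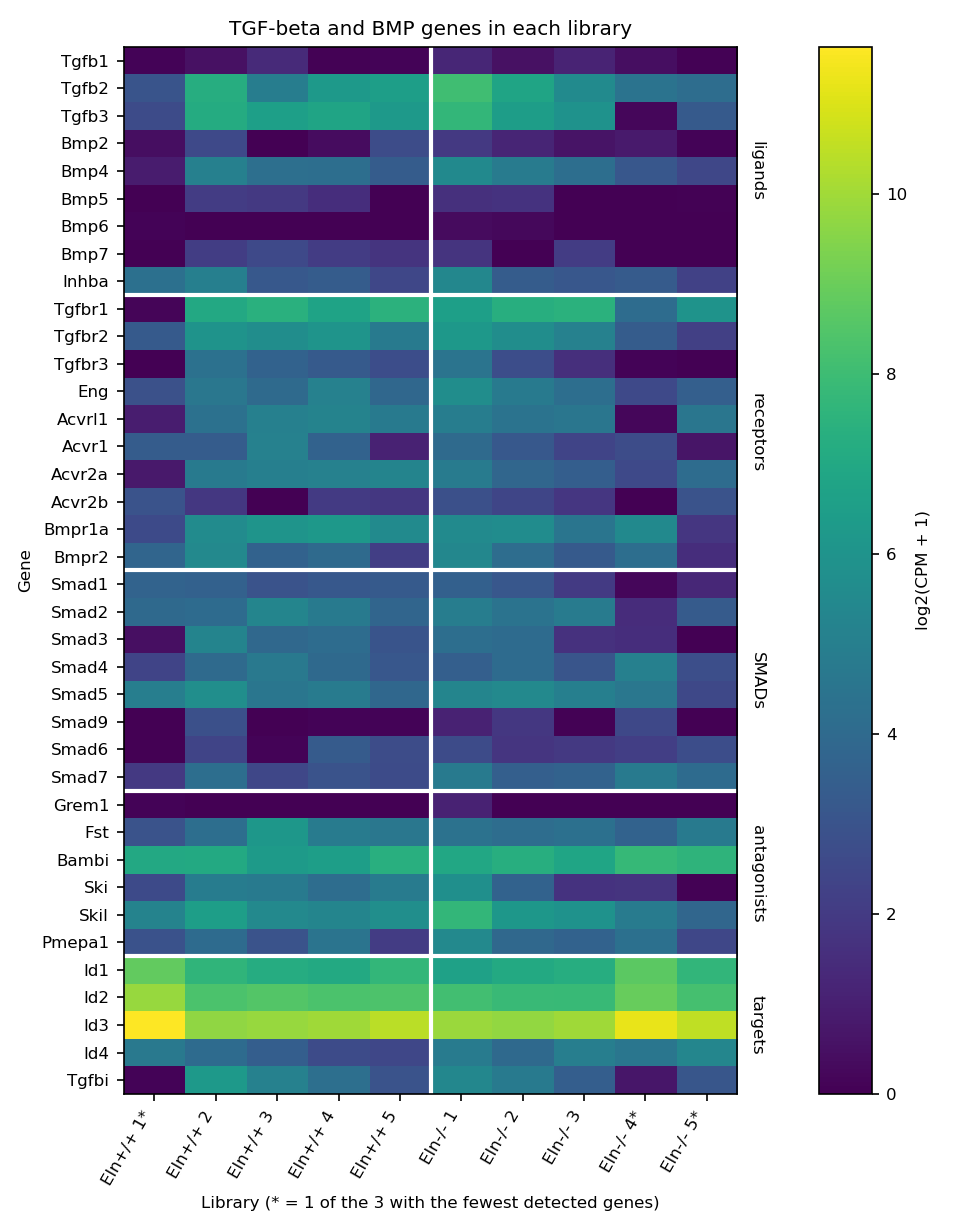
Heat map of log2(CPM + 1) for the 38 members (rows, by class) in the 10 libraries (columns; an asterisk marks the 3 libraries with the fewest detected genes). Id3 is the brightest row in every library, and Tgfbr3 is at or near 0 in all 3 marked libraries, which come from both genotypes.

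Of the ligands, Tgfb3 and Tgfb2 had the highest levels per length, at means of 23.2 and 14.0 CPM per kb of exon over all libraries, followed by Bmp4 at 8.01. Tgfb1 was near the bottom at 0.114 CPM per kb. No ligand passed the test, and the 8 ligands tested had 3 positive and 5 negative log2 fold changes (Eln-/- minus Eln+/+) with a median of -0.12. That median was 0.38 without the 3 libraries with the fewest genes and -1.03 without Eln-/- 1, while the median over all genes tested was 0.02.

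Tgfb2 (chr1:186622792-186705989, minus strand), the ligand whose loss disturbs development of the heart and great vessels, was at 7.01, 150.5, 29.7, 78.3 and 90.1 CPM in Eln+/+ libraries 1 to 5 and at 262, 108, 46.5, 20.8 and 17.0 CPM in Eln-/- libraries 1 to 5. Eln-/- 1 was the highest library and Eln+/+ 1 the lowest, and the genotypes overlapped over most of their range. For Tgfb2 the log2 fold change was 0.35 (SE 0.88, edgeR unadjusted p = 0.693, -0.57 to 0.83 over the 17 alternatives), and it was 0.69 without the 3 libraries with the fewest genes and -0.57 without Eln-/- 1. Tgfb3 (chr12:86056745-86079041, minus strand), a ligand required for palate and lung development, was at 5.36, 139, 92.2, 108.5 and 78.2 CPM in Eln+/+ libraries 1 to 5 and at 206, 86.9, 59.1, 0.145 and 8.78 CPM in Eln-/- libraries 1 to 5. It was low in the 3 libraries with the fewest genes, next to absent in Eln-/- 4, and the other 7 libraries of both genotypes overlapped. Tgfb3 had a log2 fold change of -0.23 (SE 1.18, edgeR unadjusted p = 0.847, -1.45 to 0.19 over the 17 alternatives), and it was 0.19 without those 3 libraries. As a share of the summed CPM per kb of Tgfb1, Tgfb2 and Tgfb3, Tgfb3 was the largest in 8 of 10 libraries, at 56.4% to 83.3%. In Eln-/- 4 and Eln-/- 5 it was Tgfb2 that held the largest share, at 96.9% and 53.0%. Tgfb1 held at most 1.95% in any library.

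Bmp2 (chr2:133552159-133562885, plus strand), a ligand of the BMP branch, had the lowest p of the class. It was at 0.331, 4.98, 0.0203, 0.301 and 5.48 CPM in Eln+/+ libraries 1 to 5 and at 2.77, 1.28, 0.533, 0.799 and 0.0754 CPM in Eln-/- libraries 1 to 5. Eln+/+ 2 and Eln+/+ 5 stood highest, the other 3 Eln+/+ libraries were all under 1 CPM, and every Eln-/- library lay within the Eln+/+ range. On the log2 scale the fold change of Bmp2 was -1.02 (SE 1.36, edgeR unadjusted p = 0.466, -1.73 to 0.73 over the 17 alternatives).

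The remaining ligands also overlapped between genotypes. Bmp4, a BMP of mesodermal tissues, was at 15.6 ± 11.6 CPM (SD, n = 5) in Eln+/+ and 20.4 ± 16.3 CPM in Eln-/- libraries (range over all libraries 0.860 to 44.9 CPM). Inhba, which encodes the subunit of activin A, was at 14.3 ± 10.7 CPM (SD, n = 5) in Eln+/+ and 14.2 ± 15.1 CPM in Eln-/- libraries (range 3.73 to 41.0 CPM), and its log2 fold change of -0.01 was 0.56 without the 3 libraries with the fewest genes and -0.93 without Eln-/- 1. Bmp7 was at 2.75 ± 1.77 CPM (SD, n = 5) in Eln+/+ and 1.12 ± 1.56 CPM in Eln-/- libraries and had no count in Eln+/+ 1, Eln-/- 4 and Eln-/- 5. Bmp5 was at 1.55 ± 1.49 CPM (SD, n = 5) in Eln+/+ and 0.873 ± 1.18 CPM in Eln-/- libraries and had a count in 6 of 10 libraries. Tgfb1, the TGF-beta of platelets and immune cells, did not pass 1.64 CPM in any library, with means of 0.452 ± 0.686 CPM (SD, n = 5) in Eln+/+ and 0.695 ± 0.584 CPM in Eln-/- libraries. Bmp6 was not tested, since it had counts in 3 libraries alone (1 in Eln+/+ 1, 20 in Eln-/- 1 and 12 in Eln-/- 2). A count of 0 allows up to 3 counts, by counting error only. The log2 fold changes of this group, with the range over the 17 alternatives after the SE, were 0.62 for Tgfb1 (SE 1.14, 0.21 to 2.22), 0.39 for Bmp4 (SE 0.87, -0.13 to 0.84), -0.82 for Bmp5 (SE 1.85, -1.56 to -0.39) and -1.29 for Bmp7 (SE 1.75, -5.13 to -0.87). The far ends were reached by Tgfb1 with quality weights and by Bmp7 with the replicate block.

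Of the receptors, Tgfbr1 had the highest level, at 16.5 CPM per kb, followed by Bmpr1a (6.33), Eng (4.96), Acvrl1 (4.91) and Tgfbr2 (4.65). No receptor passed the test. Of the 10 receptors, 2 had a positive log2 fold change (Eng and Acvr2b) and 8 a negative one, with a median of -0.28, which was -0.12 without the 3 libraries with the fewest genes and -0.65 without Eln-/- 1. Among all genes tested, 51.5% were positive.

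Tgfbr1 (chr4:47353222-47414931, plus strand), the type I receptor of TGF-beta and one of the genes whose upstream window is printed above, was at 0.132, 128, 167, 108 and 179 CPM in Eln+/+ libraries 1 to 5 and at 94.2, 156, 171, 16.1 and 61.5 CPM in Eln-/- libraries 1 to 5. The 7 libraries with more detected genes lay between 94.2 and 179 CPM in both genotypes, and Eln+/+ 1 was close to 0. For Tgfbr1 the log2 fold change was -0.22 (SE 1.05, edgeR unadjusted p = 0.836, -0.54 to 0.32 over the 17 alternatives), and it was -0.03 without the 3 libraries with the fewest genes. Bmpr1a (chr14:34410734-34503341, minus strand), a type I receptor of BMPs, was at 5.09, 48.1, 63.4, 72.8 and 47.0 CPM in Eln+/+ libraries 1 to 5 and at 46.6, 49.6, 22.3, 44.7 and 2.56 CPM in Eln-/- libraries 1 to 5. Eln+/+ 1 and Eln-/- 5 were the low libraries, and of the Eln-/- libraries only Eln-/- 2 reached the range of the other 4 Eln+/+ libraries. Bmpr1a had a log2 fold change of -0.51 (SE 0.78, edgeR unadjusted p = 0.523, -0.79 to -0.22 over the 17 alternatives). Acvr2a (chr2:48814109-48903269, plus strand), a type II receptor of activins and BMPs, had the lowest p of the receptors. It was at 0.727, 26.6, 31.2, 33.5 and 37.1 CPM in Eln+/+ libraries 1 to 5 and at 28.1, 13.4, 10.2, 5.01 and 16.0 CPM in Eln-/- libraries 1 to 5. Outside Eln+/+ 1, which was the lowest of all, the Eln+/+ libraries were all at 26.6 CPM or more, and 4 of the 5 Eln-/- libraries were at 16.0 CPM or less. On the log2 scale the fold change of Acvr2a was -0.83 (SE 0.82, edgeR unadjusted p = 0.335, -1.21 to -0.60 over the 17 alternatives), and it was -0.87 without the 3 libraries with the fewest genes. Some of the exonic sequence of Acvr2a, 446 bp in all, overlaps exons of Orc4 on the opposite strand. The strand setting of the counts is not stated in the labels. In all, 13 members have exons that overlap those of another gene. They are Tgfb2, Tgfb3, Bmp4, Bmp5, Bmp6, Tgfbr3, Eng, Acvrl1, Acvr2a, Bmpr1a, Smad5, Fst and Id4. The longest overlap is that of Bmp5, with a gene on the opposite strand. The part of the overlapping genes in the levels of these members was not tested.

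The other receptors also overlapped between genotypes. Tgfbr2, the type II receptor of TGF-beta, was at 41.9 ± 23.7 CPM (SD, n = 5) in Eln+/+ and 34.2 ± 29.0 CPM in Eln-/- libraries. Eng, a co-receptor best known from endothelial cells, was at 18.4 ± 10.3 CPM (SD, n = 5) in Eln+/+ and 21.8 ± 17.9 CPM in Eln-/- libraries. Acvrl1, a type I receptor for BMP9 and BMP10 that is also mainly endothelial, was at 22.9 ± 13.7 CPM (SD, n = 5) in Eln+/+ and 19.0 ± 11.1 CPM in Eln-/- libraries, with its lowest values in Eln+/+ 1 (0.926) and Eln-/- 4 (0.145). Both genes were present although the cells were sorted as CD31-. The summed level of 10 endothelial markers ran from 15.0 to 88.5 CPM in the Eln+/+ and from 35.7 to 53.0 CPM in the Eln-/- libraries. Most of this came from a few genes, with Egfl7 at up to 52.4 CPM (7.75 or more in every library), Tek at up to 37.8 and Cldn5 at 31.6 in Eln+/+ 4 (1.37 or less elsewhere), levels that reach those of Eng and Acvrl1. Esam reached 15.2 CPM. Pecam1, on which the cells were sorted, was at most 7.70, Cdh5 at most 5.07, Kdr at most 5.23 and Tie1 and Emcn under 5 CPM, and Robo4 did not pass 1 CPM. The part of endothelial cells in the Eng and Acvrl1 levels was not tested. Acvr1 was at 13.1 ± 12.2 CPM (SD, n = 5) in Eln+/+ and 6.81 ± 5.56 CPM in Eln-/- libraries, Bmpr2 at 17.3 ± 15.1 CPM (SD, n = 5) in Eln+/+ and 17.1 ± 14.5 CPM in Eln-/- libraries, and Tgfbr3, the co-receptor betaglycan, at 9.09 ± 7.13 CPM (SD, n = 5) in Eln+/+ and 5.77 ± 8.87 CPM in Eln-/- libraries. Acvr2b was at 3.03 ± 2.44 CPM (SD, n = 5) in Eln+/+ and 3.96 ± 2.74 CPM in Eln-/- libraries, with no count in Eln+/+ 3 and Eln-/- 4. In log2 fold change, with the range over the alternatives after the SE, these receptors stood at -0.29 for Tgfbr2 (SE 0.78, -0.85 to 0.093), 0.25 for Eng (SE 0.70, -0.33 to 0.58), -0.27 for Acvrl1 (SE 1.03, -0.56 to 0.062), -0.94 for Acvr1 (SE 0.96, -1.49 to -0.22), -0.02 for Bmpr2 (SE 0.84, -0.63 to 0.66), -0.65 for Tgfbr3 (SE 1.65, -3.27 to -0.18) and 0.39 for Acvr2b (SE 1.46, 0.073 to 1.32). Acvr1 was at -0.22 without Eln+/+ 3 and -1.49 without Eln-/- 1, and Tgfbr3 at -2.22 without Eln-/- 1 and -3.27 with the replicate block.

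**Figure D2:**
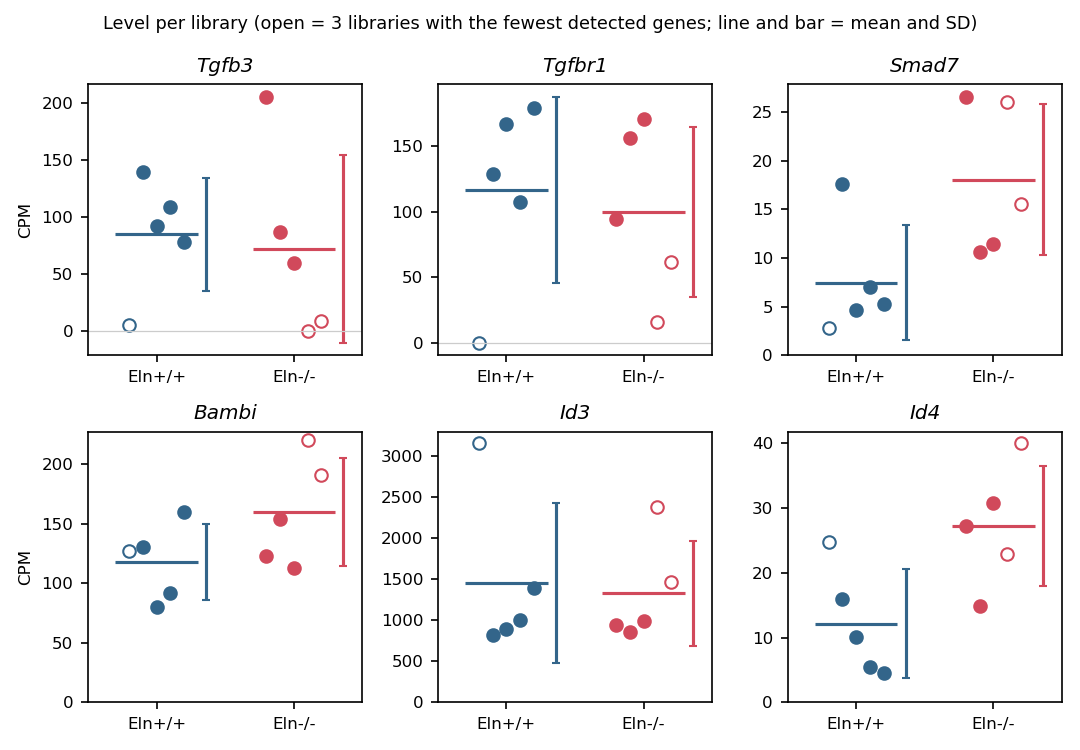
CPM in each library for 6 members, with Eln+/+ in blue and Eln-/- in red; open points are the 3 libraries poorest in detected genes, and the line and bar give the mean and SD of 5 libraries. The genotypes overlap in all 6 panels, and the open points lie lowest for Tgfb3 and Tgfbr1 and highest for Id3.

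Among the SMADs, Smad5 and Smad4 had the highest levels per length (3.87 and 3.74 CPM per kb), and Smad7 came next at 2.82. No SMAD passed the test, with 3 positive and 4 negative log2 fold changes among the 7 tested and a median of -0.04 (-0.27 without the 3 libraries with the fewest genes and -0.18 without Eln-/- 1). The inhibitory Smad7 (chr18:75367529-75395935, plus strand) had the second lowest p of all members. It was at 2.84, 17.7, 4.61, 6.97 and 5.24 CPM in Eln+/+ libraries 1 to 5 and at 26.6, 10.6, 11.4, 26.1 and 15.6 CPM in Eln-/- libraries 1 to 5. All 5 Eln-/- libraries were above 4 of the 5 Eln+/+ libraries, and Eln+/+ 2 at 17.7 CPM was above 3 of the Eln-/- libraries. For Smad7 the log2 fold change was 1.27 (SE 0.67, edgeR unadjusted p = 0.0826, 0.63 to 1.87 over the 17 alternatives), with its lowest value under quality weights and its highest without Eln+/+ 2. Without the 3 libraries with the fewest genes it was 0.925. Smad6, the other inhibitory SMAD, was at 3.75 ± 3.82 CPM (SD, n = 5) in Eln+/+ and 3.96 ± 1.47 CPM in Eln-/- libraries, with no count in Eln+/+ 1.

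Smad5 (chr13:56703010-56742377, plus strand), a SMAD of the BMP branch, was at 30.1, 51.9, 22.4, 27.5 and 13.9 CPM in Eln+/+ libraries 1 to 5 and at 38.1, 43.2, 31.6, 23.8 and 4.71 CPM in Eln-/- libraries 1 to 5. Its lowest level was in Eln-/- 5, and the genotypes overlapped over nearly the whole range. Smad5 had a log2 fold change of -0.04 (SE 0.61, edgeR unadjusted p = 0.943, -0.25 to 0.41 over the 17 alternatives). Smad4 (chr18:73639009-73703780, minus strand), the common partner, was at 4.17, 15.5, 24.8, 14.7 and 8.04 CPM in Eln+/+ libraries 1 to 5 and at 10.5, 15.7, 7.37, 32.2 and 5.99 CPM in Eln-/- libraries 1 to 5. Eln-/- 4 was the highest library and Eln+/+ 1 the lowest, and the genotypes overlapped. The place of Eln-/- 4 depends on its composition factor of 0.486, which raises its CPM. By total count alone Smad4 would be higher in Eln+/+ 3 than in Eln-/- 4. On the log2 scale the fold change of Smad4 was 0.10 (SE 0.69, edgeR unadjusted p = 0.893, -0.46 to 0.43 over the 17 alternatives), and it was -0.46 without the 3 libraries with the fewest genes.

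Among the 5 receptor SMADs, Smad5 held the largest share of summed CPM per kb in 8 libraries (27.4% to 68.9% over all 10), and Smad2 in the other 2, Eln+/+ 3 (39.7%) and Eln-/- 5 (54.2%). Smad2, of the TGF-beta branch, was at 21.7 ± 10.8 CPM (SD, n = 5) in Eln+/+ and 17.7 ± 12.1 CPM in Eln-/- libraries. Smad3, its partner in that branch, was at 15.1 ± 13.9 CPM (SD, n = 5) in Eln+/+ and 7.38 ± 8.33 CPM in Eln-/- libraries, and had no count in Eln-/- 5 and 0.397 CPM in Eln+/+ 1. Smad1, of the BMP branch, was at 9.44 ± 2.21 CPM (SD, n = 5) in Eln+/+ and 4.63 ± 4.53 CPM in Eln-/- libraries. Its 2 lowest libraries were Eln-/- 4 (0.145) and Eln-/- 5 (1.43), and its log2 fold change of -1.03 (SE 0.95) was -0.27 without the 3 libraries with the fewest genes and -1.81 with the replicate block. Smad9 was not tested in the fit of all libraries. It had 534 counts in Eln+/+ 2 (6.13 CPM), 179 in Eln-/- 2 (2.73 CPM) and 87 in Eln-/- 1 (1.19 CPM). In Eln-/- 4 it had 65 counts, which came to 4.72 CPM with the low composition factor of that library. Any other library had at most 5 counts. Fold changes of the other SMADs tested were -0.29 for Smad2 (SE 0.71, -0.56 to 0.17), -1.03 for Smad3 (SE 1.37, -2.45 to -0.36) and 0.08 for Smad6 (SE 1.30, -0.51 to 1.95) on the log2 scale, with the range over the alternatives after the SE. The far ends of Smad3 and Smad6 came with limma-voom, and Smad3 was at -0.36 without Eln+/+ 2.

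Bambi was the antagonist with the highest level, at 27.4 CPM per kb, and Skil (6.61) and Fst (5.23) followed. No antagonist passed the test. Of the 5 tested, 3 were positive and 2 negative with a median of 0.44, which was 0.19 without the 3 libraries with the fewest genes and -0.29 without Eln-/- 1. Bambi (chr18:3507923-3516404, plus strand) encodes a receptor-like protein without a kinase domain that blocks signalling. It was at 127, 131, 79.8, 91.9 and 160.0 CPM in Eln+/+ libraries 1 to 5 and at 123, 154, 113, 220.3 and 191 CPM in Eln-/- libraries 1 to 5. Every library held it at 79.8 CPM or more, the 2 highest were Eln-/- 4 and Eln-/- 5, and the 3 other Eln-/- libraries lay within the Eln+/+ range. Eln-/- 4 and Eln-/- 5 are among the 3 libraries with the fewest genes, and their low composition factors raise their CPM. For Bambi the log2 fold change was 0.44 (SE 0.37, edgeR unadjusted p = 0.261, 0.19 to 0.58 over the 17 alternatives), with its lowest value without those 3 libraries. It was the least variable member, with a standard deviation of log2 CPM within genotypes of 0.41. Over the members tested the median of that standard deviation was 1.70, against 1.83 over all genes, and 23 members were under the latter.

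Skil (chr3:31095058-31122577, plus strand), which encodes the SMAD corepressor SnoN and is itself induced by TGF-beta, was at 36.1, 89.6, 44.1, 38.6 and 52.2 CPM in Eln+/+ libraries 1 to 5 and at 209, 70.2, 59.8, 27.7 and 13.5 CPM in Eln-/- libraries 1 to 5. Eln-/- 1 stood far above all other libraries and Eln-/- 5 was the lowest. Skil had a log2 fold change of 0.54 (SE 0.66, edgeR unadjusted p = 0.427, -0.29 to 1.03 over the 17 alternatives), and it was -0.29 without Eln-/- 1. Ski, the related corepressor, was at 21.0 ± 10.1 CPM (SD, n = 5) in Eln+/+ and 14.2 ± 23.0 CPM in Eln-/- libraries, and its Eln-/- mean rested on Eln-/- 1 (54.6 CPM, the other 4 between 0.0377 and 11.6). Pmepa1, a TGF-beta-induced protein that sequesters SMADs, was at 10.8 ± 7.42 CPM (SD, n = 5) in Eln+/+ and 18.4 ± 14.7 CPM in Eln-/- libraries, again with its highest value in Eln-/- 1 (43.1). Fst, which encodes follistatin, a binder of activin, was at 29.1 ± 24.3 CPM (SD, n = 5) in Eln+/+ and 18.9 ± 5.53 CPM in Eln-/- libraries. Grem1, a BMP antagonist, was not tested, with 83 counts in Eln-/- 1, 3 counts in all over Eln+/+ 1 and Eln+/+ 2, and none in the other 7 libraries. Pmepa1 had a positive log2 fold change, and Ski and Fst negative ones, with 0.77 for Pmepa1 (SE 0.74, 0.13 to 1.17), -0.57 for Ski (SE 1.21, -2.57 to -0.10) and -0.63 for Fst (SE 0.61, -0.87 to 0.001). Without Eln-/- 1 these were 0.18, -2.37 and -0.66.

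Of the 35 members tested, 11 had their highest value in Eln-/- 1 (Tgfb2, Tgfb3, Bmp4, Inhba, Tgfbr2, Tgfbr3, Eng, Smad7, Ski, Skil and Pmepa1), against 21.6% of all genes tested. This library also had the highest summed level of 15 immediate early genes, the transcripts that rise within minutes of stimulation, at 24669 CPM. Eln+/+ 2 had the next, at 9725 CPM, and the remaining 8 libraries lay between 808 and 3997 CPM. All 15 had positive log2 fold changes, 0 passed the adjusted threshold and 1 (Klf2) an unadjusted p under 0.05. Their median was 1.31 (-0.61 without Eln-/- 1). The part of these genes in the levels of the members was not tested. Over the 35 members the median log2 fold change was -0.22 with all libraries, -0.57 without Eln-/- 1 and -0.10 without the 3 libraries with the fewest genes. Over all genes tested it was 0.02, -0.13 and 0.03 in turn.

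**Figure D3:**
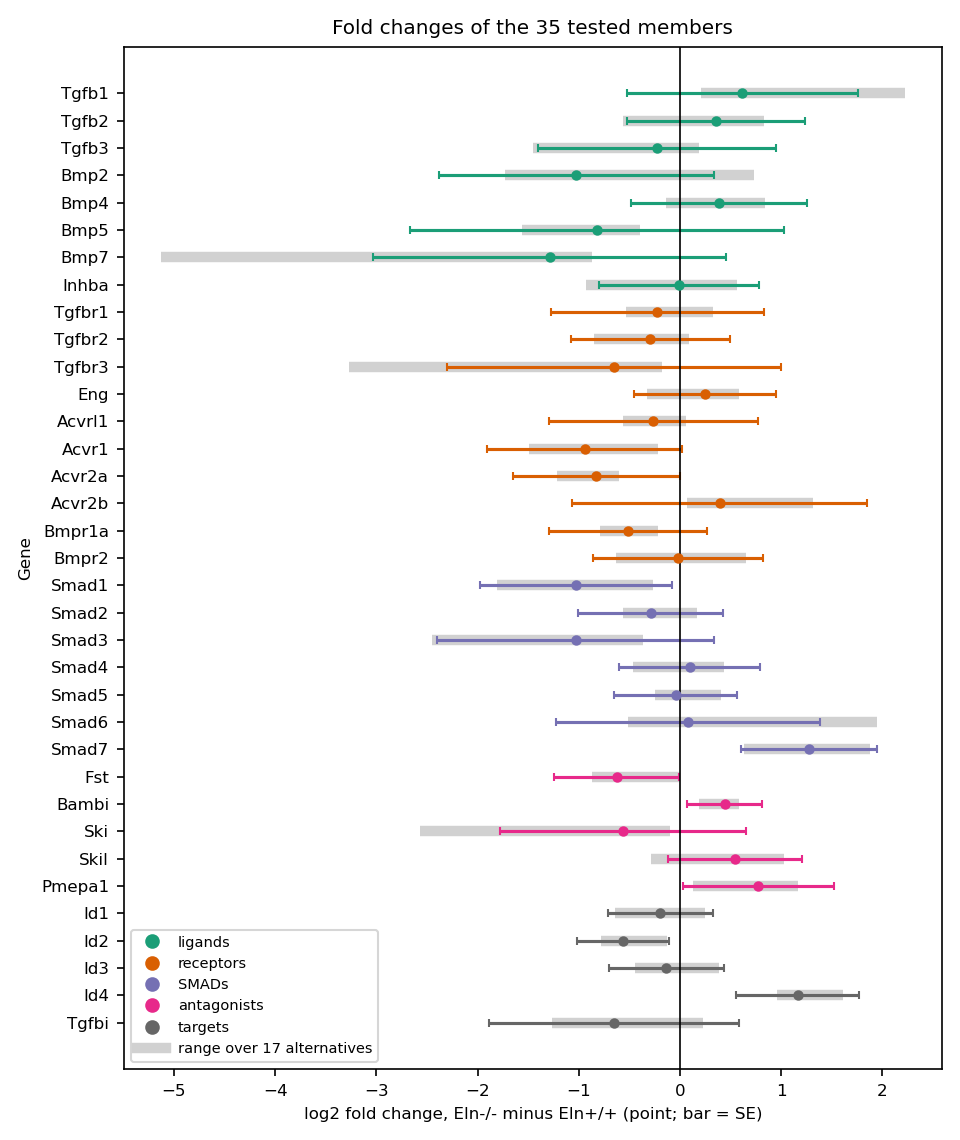
Log2 fold change (Eln-/- minus Eln+/+, points) with its SE (bars) for the 35 members tested, coloured by class; grey bands span the values of the 17 alternatives. Smad7 and Id4 lie farthest to the right, with SEs of 0.67 and 0.60, and 19 members have a band that reaches the other side of 0.

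Of the targets, the Id genes, which encode inhibitors of basic helix-loop-helix factors and respond to BMP signals, included the most abundant members. Id3 had the highest level per length of all 38 members, at 778 CPM per kb, followed by Id1 (184) and Id2 (154). No target passed the test, with 1 positive and 4 negative log2 fold changes and a median of -0.20 (-0.37 without the 3 libraries with the fewest genes and -0.04 without Eln-/- 1).

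Id3 (chr4:136143497-136145755, plus strand) was at 3166.5, 826, 899, 1003 and 1394.5 CPM in Eln+/+ libraries 1 to 5 and at 943.5, 858, 989, 2385 and 1467 CPM in Eln-/- libraries 1 to 5. The 3 highest libraries were Eln+/+ 1, Eln-/- 4 and Eln-/- 5, those with few detected genes, and the other 7 lay between 826 and 1394.5 CPM. These 3 libraries also had the lowest composition factors, which raise their CPM. On the log2 scale the fold change of Id3 was -0.13 (SE 0.56, edgeR unadjusted p = 0.817, -0.45 to 0.39 over the 17 alternatives), and it was -0.127 without the 3 libraries with the fewest genes. Id1 (chr2:152736251-152737410, plus strand) was at 457, 192, 148, 134 and 209 CPM in Eln+/+ libraries 1 to 5 and at 98.6, 132, 153, 414 and 198 CPM in Eln-/- libraries 1 to 5. The highest library of each genotype was again one with few detected genes, Eln+/+ 1 and Eln-/- 4. The place of Eln+/+ 1 depends on composition scaling, since by total count alone Id1 would be slightly higher in Eln+/+ 2. For Id1 the log2 fold change was -0.20 (SE 0.52, edgeR unadjusted p = 0.712, -0.64 to 0.24 over the 17 alternatives), and it was -0.40 without the 3 libraries with the fewest genes. Id2 was at 449 ± 253 CPM (SD, n = 5) in Eln+/+ and 303.5 ± 102 CPM in Eln-/- libraries, and 4 of 5 Eln-/- libraries were under every Eln+/+ library, but Eln-/- 4 at 479 CPM was above all Eln+/+ libraries except Eln+/+ 1. Id2 had a log2 fold change of -0.57 (SE 0.46), which was -0.13 without Eln+/+ 1.

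Id4 (chr13:48261228-48266026, plus strand) is the Id gene best known from neural progenitors, and its upstream window is printed above. It was at 24.7, 16.0, 10.1, 5.40 and 4.59 CPM in Eln+/+ libraries 1 to 5 and at 27.3, 14.9, 30.8, 22.9 and 39.9 CPM in Eln-/- libraries 1 to 5. Of the Eln-/- libraries, 4 of 5 were above 4 of 5 Eln+/+ libraries, while Eln-/- 2 was under Eln+/+ 2 and Eln+/+ 1 was above 2 Eln-/- libraries. This order depends in part on the scaling, since low composition factors raise the CPM of Eln-/- 4 and Eln+/+ 1. By total count alone Id4 in Eln-/- 4 would also be under Eln+/+ 2 and Eln+/+ 3. Id4 had a log2 fold change of 1.16 (SE 0.60, edgeR unadjusted p = 0.0796, 0.96 to 1.61 over the 17 alternatives), and it was 1.45 without the 3 libraries with the fewest genes. Exons of Id4 overlap those of A330033J07Rik (82 bp) and Gm49291 (171 bp) on the opposite strand. Of the summed CPM per kb of the Id family, Id3 held 60.5% to 73.0%, at 66.9% ± 4.40 (SD, n = 5) in Eln+/+ and 71.0% ± 1.51 in Eln-/-. Id4 held 0.25%, 0.54%, 0.33%, 0.17% and 0.11% in Eln+/+ libraries 1 to 5 and 0.97%, 0.56%, 1.02%, 0.31% and 0.92% in Eln-/- libraries 1 to 5. Only Eln-/- 4 had an Id4 share within the Eln+/+ range, and no test was made of the shares. Tgfbi, which encodes a matrix protein induced by TGF-beta, was at 27.0 ± 30.4 CPM (SD, n = 5) in Eln+/+ and 17.1 ± 16.1 CPM in Eln-/- libraries, from 0.0661 CPM in Eln+/+ 1 to 76.4 CPM in Eln+/+ 2. Its log2 fold change was -0.66 (SE 1.24), -1.26 without Eln-/- 1 and 0.23 without Eln+/+ 2.

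**Figure D4:**
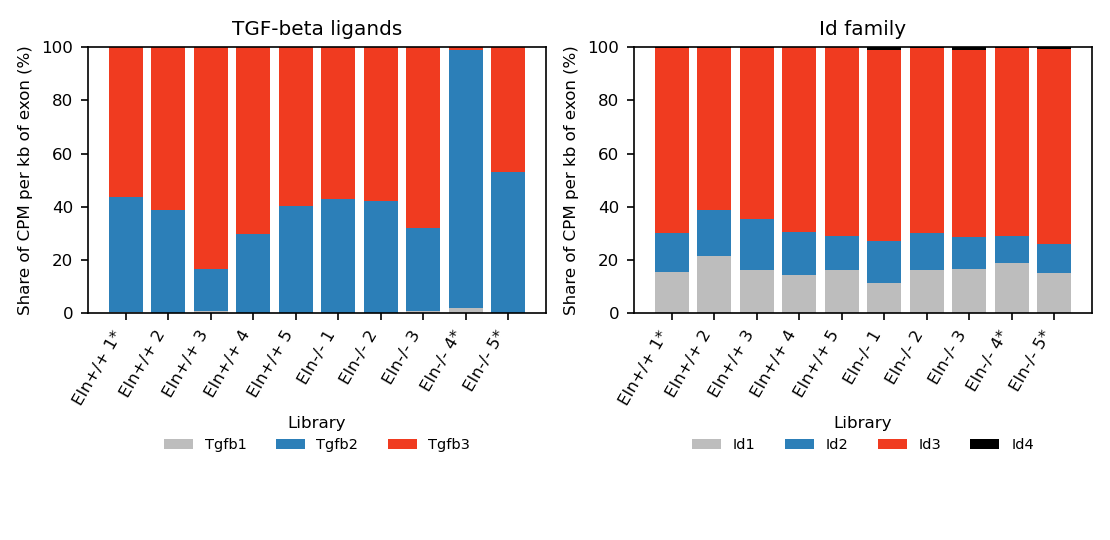
Share of the summed CPM per kb of exon (percent, stacked bars) held by Tgfb1, Tgfb2 and Tgfb3 (left) and by Id1, Id2, Id3 and Id4 (right) in each library; an asterisk marks the 3 libraries with the fewest detected genes. Tgfb2 fills 96.9% of the left bar of Eln-/- 4, while Id3 holds 60.5% to 73.0% of every right bar.

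Beyond these members, 73 other pathway genes were listed, of which 70 were in the table and 57 were tested. None passed the test with edgeR, DESeq2 or limma-voom, 0 had an unadjusted p under 0.05 with edgeR, and 33 were positive and 24 negative with a median of 0.08, which was 0.34 without the 3 libraries with the fewest genes and -0.42 without Eln-/- 1. Of 10 genes of the latent complex and its activation, 9 were positive, with a median of 0.84 that was -0.68 without Eln-/- 1. Ltbp1, which tethers latent TGF-beta to the matrix, had a log2 fold change of 1.39 (SE 1.03), and 0.07 without Eln-/- 1. Nrros, which presents latent TGF-beta on myeloid cells, had 2.55 (SE 1.94), which was 0.77 without the 3 libraries with the fewest genes, with 13.9 CPM in Eln-/- 4 and at most 2.58 CPM in any other library. Among 13 other targets, 9 were positive. Ccn2, a matricellular target of TGF-beta, had the lowest p of these genes but did not pass the test. It was at 30.4 ± 22.6 CPM (SD, n = 5) in Eln+/+ and 78.5 ± 71.1 CPM in Eln-/- libraries, and its log2 fold change of 1.37 (SE 0.70) was 0.65 without Eln-/- 1. Bhlhe40, a transcriptional repressor, had 1.60 (SE 1.26), and -0.10 without Eln-/- 1.

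Of 7 genes listed as other ligands, 4 were positive. These included Bmp1, at 1.08 (SE 1.33), which encodes a metalloprotease and not a ligand, despite its name. The 2 genes of the list with the lowest p were negative, Gdf10 at -1.15 (SE 1.19) and Mstn, which encodes myostatin, at -1.65 (SE 2.02). All 3 other receptors and co-receptors tested were positive, among them Acvr1b at 0.72 (SE 1.92) and Rgma at 0.39 (SE 1.14). Of 13 other antagonists, 5 were positive and 8 negative. Fstl3, a relative of follistatin, was at 1.03 (SE 0.62), and 0.28 without Eln-/- 1, and Bmper, a BMP-binding protein of vessels, at -0.76 (SE 0.65). Of 12 intracellular regulators, 4 were positive and 8 negative, with Zfyve9, the anchor protein for SMADs, at 1.18 (SE 1.62) and Ppm1a, a SMAD phosphatase, at -0.49 (SE 0.69).

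The labelled cell type was checked on marker lists. The summed level of 8 smooth muscle markers was 1064 to 2565 CPM in Eln+/+ and 1181 to 4113 CPM in Eln-/- libraries, and Acta2, the gene of the reporter, was at 473 CPM or more in every library. Tagln, Cnn1, Myl9 and Tpm2 were at 16.6 CPM or more in every library. Myh11 fell to 0.0377 CPM in Eln-/- 5, Smtn to 0 in Eln+/+ 1 and Lmod1 to 0.0726 in Eln-/- 4. All 8 had positive log2 fold changes, with a median of 0.82 (-0.05 without Eln-/- 1), and none passed the test. The sum of 8 fibroblast and adventitial markers was 1219 to 4073 CPM and 496 to 2718 CPM in turn, lowest in the same 3 libraries in which many ligands and receptors were low. It was above the smooth muscle sum in Eln+/+ 2 (3255 against 2565 CPM), Eln+/+ 3 (4073 against 1064) and Eln+/+ 4 (3735.5 against 2045.5), and under it in every other library. Of the 8 fibroblast and adventitial genes 6 were negative and 2 positive, with a median of -0.82 (-1.51 without Eln-/- 1). The sum of 7 erythroid markers was 331 to 18867.5 CPM in Eln+/+, highest in Eln+/+ 1, and 23.2 to 5145 CPM in Eln-/-, highest in Eln-/- 4. Cardiomyocyte markers (8) summed to 4.26 to 895 CPM in Eln+/+ and 23.8 to 843 CPM in Eln-/-, neural and glial markers (8) to 3.44 to 41.7 and 1.82 to 18.8 CPM, epicardial and mesothelial markers (7) to 23.3 to 193 and 13.5 to 129 CPM, and macrophage and leukocyte markers (8) to 1.20 to 17.8 and 0.0377 to 9.07 CPM. In none of these lists was a gene called. The part of other cell types in the members' levels was not tested.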

How the data were processed

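Bulk mRNA was sequenced from sorted aortic smooth muscle cells, and the authors deposited 1 table of estimated counts per gene, unscaled, for 28165 genes in 10 libraries, made with STAR, DESeq2 and build mm10 per the submitters' processing notes, which list no versions. Which program counted, and with which strand setting, is not given in the sources used here. The gene spans of the table are those of GENCODE mouse release 21 for 99.0% of genes. Between 23.5% and 48.8% of a library's values were not whole (tolerance 1e-06), and all were rounded. Coordinates are on mm10. Total counts ran from 26951733 to 63866416. Genes were kept by filterByExpr (15718), scaled by TMM and tested with edgeR 4.0.16 (quasi-likelihood, two-sided, genotype only, Benjamini-Hochberg, threshold 0.05) in R 4.3.3. SE is the log2 fold change over the root of F. CPM per kb divides by merged exon length. Log2 CPM used a prior count of 2. Alternatives were RLE scaling, no filter, DESeq2 1.42.0, limma-voom (limma 3.58.1), a replicate block, and each library left out. Leaving out 3 libraries together and voom quality weights were chosen after seeing the data. The procedure was also run on simulated counts with known changes, at the observed spread and at a smaller one. The simulated libraries had no composition differences like those of the data. Its outcome is not given here and is not used as support. The members, the lists (other pathway genes; endothelial, smooth muscle, fibroblast, cardiomyocyte, leukocyte, erythroid, neural, epicardial and immediate early markers) and the tests were chosen with earlier results of these data known. By the naming rule, values in every library are given for the 2 members of each class highest in CPM per kb, for the lowest p of each class, and for any member with an unadjusted p under 0.05 or without overlap between genotypes. Up to 2 other pathway genes per list were named by p.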

Additional observations from a re-analysis of the deposited data

Results flagged for a closer look

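Each of the 38 members was examined in each genotype for 1 library whose gap to the nearest of the others was large for the range of the 5 libraries (Dixon's 95% critical value). Of 76 such groups 13 were marked. Chance alone marks about 1 in 20 groups of normally distributed values, but over all genes tested 20.1% of groups were marked, and over the 35 members tested 10 of 70 (14.3%). Eln+/+ 1 was the marked library in 5 of the 13, Eln-/- 1 in 4, Eln+/+ 2 in 2, and Eln+/+ 3 and Eln-/- 4 in 1 each.

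In Eln+/+ 1 the targets Id1 (457 CPM, next 209), Id2 (901, next 366) and Id3 (3166.5, next 1394.5) stood above the other Eln+/+ libraries. Their CPM in Eln+/+ 1 was raised by its composition factor of 0.562, so the size of these gaps depends on the scaling. For Id1 the gap itself depends on it. Id1 had 6907 of 26951733 counts in Eln+/+ 1 and 16733 of 63866416 in Eln+/+ 2, a slightly larger part of the total. Acvr2a stood under the other Eln+/+ libraries in Eln+/+ 1 (0.727 CPM, next 26.6), and Bmp6 was at 0.0661 CPM with 0 in the others, which is 1 count and within the 3 counts that a count of 0 allows. In Eln-/- 1 the high values were Inhba (41.0 CPM, next 9.51), Tgfbr3 (21.1, next 5.73), Ski (54.6, next 11.6) and Grem1 (1.14, with 0 in the others). Eln+/+ 2 was high in Smad7 (17.7 CPM, next 6.97) and Smad9 (6.13, next 0.0792). Eln+/+ 3 was high in Tgfb1 (1.64 CPM, next 0.436), and Eln-/- 4 in Id2 (479 CPM, next 297). Id2 had 6591 counts in Eln-/- 4, the fewest of any Eln-/- library, and the total count was also lowest there. Its high CPM in Eln-/- 4 thus depends on the scaling, with a composition factor of 0.486.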

How the results depend on the processing

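No member and no other pathway gene was called in any of the 17 alternatives, and the smallest adjusted p of a member in any of them was 0.466. The class medians moved by less than the replicate SD, but that SD was wide (0.74 to 1.79), so this does not show that they were stable. Over the settings the medians ran from -1.03 to 0.38 for ligands, -0.27 to 0.12 for SMADs, -0.29 to 0.545 for antagonists and -0.45 to 0.24 for targets, thus changing sign. The receptor median stayed negative (-0.65 to -0.04). Over all genes, 0 were called by edgeR, 6 by DESeq2, 2 by limma-voom, 7 with quality weights, and 0 to 1 with 1 library left out (1 without Eln-/- replicate 1). The sign of the fold change was the same in all alternatives for 16 members (6 positive, 10 negative), and turned for 19; the cause was not tested. The labels do not say whether replicate numbers pair the samples. Same-numbered deviations correlated at -0.556, 0.51, 0.118, -0.381 and 0.092, and 1 of 5 was best with its own number. These correlations show no clear pairing, but cannot settle whether same-numbered samples shared a litter or a day. With the replicate block no member was called, and the log2 fold change turned to -0.23 for Tgfb2, 0.72 for Bmp2 and -0.014 for Skil. With limma-voom it turned to 0.14 for Bmp2, 0.006 for Inhba, 0.32 for Tgfbr1 and -0.23 for Smad4. With quality weights it turned to 0.73 for Bmp2, 0.31 for Tgfbr1, -0.009 for Eng, 0.014 for Bmpr2, -0.18 for Smad4, 0.41 for Smad5 and -0.51 for Smad6. Without the low-count filter it turned to 0.001 for Inhba. Without the 3 libraries with the fewest genes it turned to 0.19 for Tgfb3, 0.56 for Inhba, 0.093 for Tgfbr2, 0.28 for Bmpr2, 0.17 for Smad2, -0.46 for Smad4, 0.40 for Smad5 and -0.37 for Smad6. Leaving out 1 library at a time gave ranges of -0.57 to 0.83 for Tgfb2, -1.13 to 0.09 for Tgfb3, -0.13 to 0.84 for Bmp4, -0.93 to 0.51 for Inhba, -0.54 to 0.058 for Tgfbr1, -0.33 to 0.58 for Eng, -0.57 to 0.062 for Acvrl1, -0.63 to 0.66 for Bmpr2, -0.57 to 0.019 for Smad2, -0.43 to 0.43 for Smad4, -0.25 to 0.27 for Smad5, -0.24 to 0.70 for Smad6, -0.86 to 0.001 for Fst, -0.29 to 0.84 for Skil, -0.64 to 0.24 for Id1, -0.45 to 0.39 for Id3 and -1.26 to 0.23 for Tgfbi. Among members whose sign did not turn, the fold change still ran from -5.13 to -0.87 for Bmp7, -3.27 to -0.18 for Tgfbr3, -2.57 to -0.10 for Ski, -2.45 to -0.36 for Smad3 and 0.21 to 2.22 for Tgfb1. Smad9, Bmp6 and Grem1 did not pass the count filter in the fit of all libraries. Smad9 passed it in some fits with 1 library left out and, at -0.24, without the 3 libraries with the fewest genes, and was not called in them.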
